A study of Mus musculus with 4 samples.

Results

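The 32 genes described here make, sense, and export cholesterol or belong to the fatty acid branch that the same transcription factors drive. They were taken by name from the gene table of a scRNA-Seq experiment on mouse B cells, in which all 32 were found among 31053 genes. By role they comprise 5 regulators of the sterol-sensing pathway, 7 enzymes from acetoacetyl-CoA to farnesyl diphosphate, 11 enzymes from squalene to cholesterol, 1 enzyme of the isoprenoid branch, 1 sterol transfer protein, 4 enzymes of fatty acid synthesis, and 3 targets of the liver X receptors (LXR). All 32 reached 5 counts per 1000000 unique molecular identifiers (UMIs) in at least 1 library, as did 8691 genes of the whole table.

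The experiment used wild-type splenic B cells that were isolated from mouse spleen by negative selection and cultured. Bregs-CpG (2 samples) were kept with CpG, an agonist of TLR9, for 3 days. Bregs-TLR (2 samples) received the same culture and, for the last 5 hours, LPS, PMA, and ionomycin in addition. Barcodes end in a library number from 5 to 8, which no label ties to a culture, so the 4 libraries count as 1 pooled sample and are described by their numbers. No difference between conditions was tested, and no p-value is given. The values below are counts of a gene per 1000000 UMIs in its library (CPM), with exact Poisson 95% intervals, and differences are ratios of the highest to the lowest library with exact conditional 95% intervals. These intervals cover counting error only and contain no variation between mice or cultures.

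Libraries 5, 6, 7, and 8 kept 4196, 4714, 5621, and 4003 cells after the limits of 1000 detected genes and 10% mitochondrial UMIs, together 18534 of 19920 barcodes. They held 44842982, 51636750, 63638158, and 45672518 UMIs. The median mitochondrial share was 7.22% and 7.18% in libraries 5 and 6 and 4.61% and 4.65% in libraries 7 and 8. Pairs of libraries shared 1 to 8 barcodes. All 7 B cell markers reached 5 CPM, and their sum was 15100, 15700, 8020, and 7990 CPM in libraries 5 to 8. Summed markers of T cells lay between 3.92 and 7.96 CPM, those of macrophages between 2.12 and 3.09 CPM, and those of NK cells, neutrophils, dendritic cells, and platelets under 1 CPM, with Cd3e, Trbc2, Ncr1, Klrb1c, Lyz2, C1qa, C1qb, S100a8, S100a9, Camp, Siglech, Ppbp, and the stromal Col1a2 listed at 0. Values of 0 in every cell are unusual for droplet data, and whether these rows hold all of their counts is not known, so the sums may be too low. Hbb-bt, a globin gene of erythroid cells, differed more, at 4.57, 4.30, 218, and 285 CPM, while Hba-a1 and Hba-a2 were listed at 0. Of the other erythroid markers, Hbb-bs stood at 0.0223, 0, 0.66, and 0.416 CPM, and Alas2 was at most 0.0471 CPM. Pecam1, counted here among stromal markers, stood at 91.9, 95.4, 51.2, and 45.4 CPM. The part of the mitochondrial share, Hbb-bt, and Pecam1 in the differences below was not tested.

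Cells hold their cholesterol within narrow limits through SREBP transcription factors, which are made as membrane proteins of the endoplasmic reticulum. SCAP carries them to the Golgi when sterol is low, where proteases free the part that enters the nucleus, and INSIG proteins hold SCAP back when sterol is plentiful. When sterol is in excess, oxysterols activate LXR, which turns on the transporters that move cholesterol out of the cell. Dividing lymphocytes draw on this pathway for new membrane and for the isoprenoid groups that anchor small GTPases.

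Sequences upstream of 5 members are shown. Idi1, Lss, and Mylip were among those furthest apart between libraries, Mvd had the reverse order of its pathway neighbors, and Hmgcs1 holds the single match to the core of the sterol regulatory element. RefSeq windows of 300 bases around the transcription start (GRCm38.p6) were found for 25 of the 32 members. None was found for Fdps, Fdft1, Sqle, Stard4, Scd1, Scd2, and Abcg1. The last 150 bases before the start are printed 5′ to 3′ on the strand of the gene, with capitals for TCACNCCAC, the core of the sterol regulatory element, and for CCAAT or its complement ATTGG, the motif of NF-Y, a factor known to act beside SREBPs.
Hmgcs1: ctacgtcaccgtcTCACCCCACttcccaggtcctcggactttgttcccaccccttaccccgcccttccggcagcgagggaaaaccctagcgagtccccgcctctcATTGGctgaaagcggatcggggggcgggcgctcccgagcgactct
Idi1: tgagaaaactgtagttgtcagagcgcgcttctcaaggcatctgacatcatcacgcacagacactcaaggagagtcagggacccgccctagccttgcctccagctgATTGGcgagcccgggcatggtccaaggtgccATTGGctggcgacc
Mvd: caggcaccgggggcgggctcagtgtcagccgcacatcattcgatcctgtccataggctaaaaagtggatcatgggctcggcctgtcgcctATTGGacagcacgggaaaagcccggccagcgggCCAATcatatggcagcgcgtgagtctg
Lss: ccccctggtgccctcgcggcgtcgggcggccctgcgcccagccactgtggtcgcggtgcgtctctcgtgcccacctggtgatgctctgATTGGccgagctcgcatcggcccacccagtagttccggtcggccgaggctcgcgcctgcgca
Mylip: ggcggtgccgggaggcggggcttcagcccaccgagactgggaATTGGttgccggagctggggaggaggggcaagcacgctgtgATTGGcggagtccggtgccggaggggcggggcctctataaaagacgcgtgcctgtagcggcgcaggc

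These stretches lie at chr13:119690201-119690350 on the plus strand for Hmgcs1, at chr13:8885456-8885605 on the plus strand for Idi1, at chr8:122443423-122443572 on the minus strand for Mvd, at chr10:76531455-76531604 on the plus strand for Lss, and at chr13:45389592-45389741 on the plus strand for Mylip. On both strands of the whole windows, CCAAT was found in 21 of the 25 members (84%), against 43.6% of the 6901 genes with a window that reached 5 CPM and 41.1% of all 27025 genes with a window. The element core TCACNCCAC was found in Hmgcs1 alone among the 25, and in 1.44% of all genes. The full element, an A followed by TCACCCCAC, was found in 0 of the 25 and in 0.0999% of all genes. The E-box CACGTG was found in 6 members, Abca1, Dhcr7, Hsd17b7, Insig1, Sc5d, and Scap (24%), against 12.8% of the genes that reached 5 CPM. The LXR direct repeat, AGGTCA with a spacer of 4 bases and AGGTCA again, was in 0 of the 25 and in 0.0148% of all genes. A match shows letters in the window and does not show binding.

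Across the 4 libraries, 10 of the 32 members differed at least 2-fold between their highest and lowest library (31.2%), which is close to the 31.7% of all 8691 genes that did so by the same rule. Of the 10, Acat2, Hmgcs1, Idi1, Fdps, Lss, Fasn, and Acaca had libraries 7 and 8 as the 2 higher (21.9% of members, against 17.0% of all genes). Scd1, Abcg1, and Mylip had libraries 5 and 6 as the 2 higher (9.38% of members, against 14.6% of all genes). By order alone, without a limit on size, 20 of 32 members were higher in libraries 7 and 8 (62.5%, against 54.1% of all genes) and 11 were higher in libraries 5 and 6 (34.4%, against 37.7%). The median member differed 1.60-fold between its highest and lowest library, as did the median gene. The members and the lists below were chosen with earlier results of these data known. Their shares beside those of all genes are therefore a description and no independent support. Mitochondrial, ribosomal protein, and immunoglobulin genes took 46.9%, 46.1%, 39.4%, and 41.1% of UMIs in libraries 5 to 8, and the median gene was 0.217 higher on the log2 CPM scale in library 7 than in library 5 and 0.159 higher in library 8. The order of the members was therefore checked under 3 other scalings, and the 2 higher libraries stayed the same for 29 of the 32, the exceptions being Mvk, Hsd17b7, and Scd2.

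**Figure D1:**
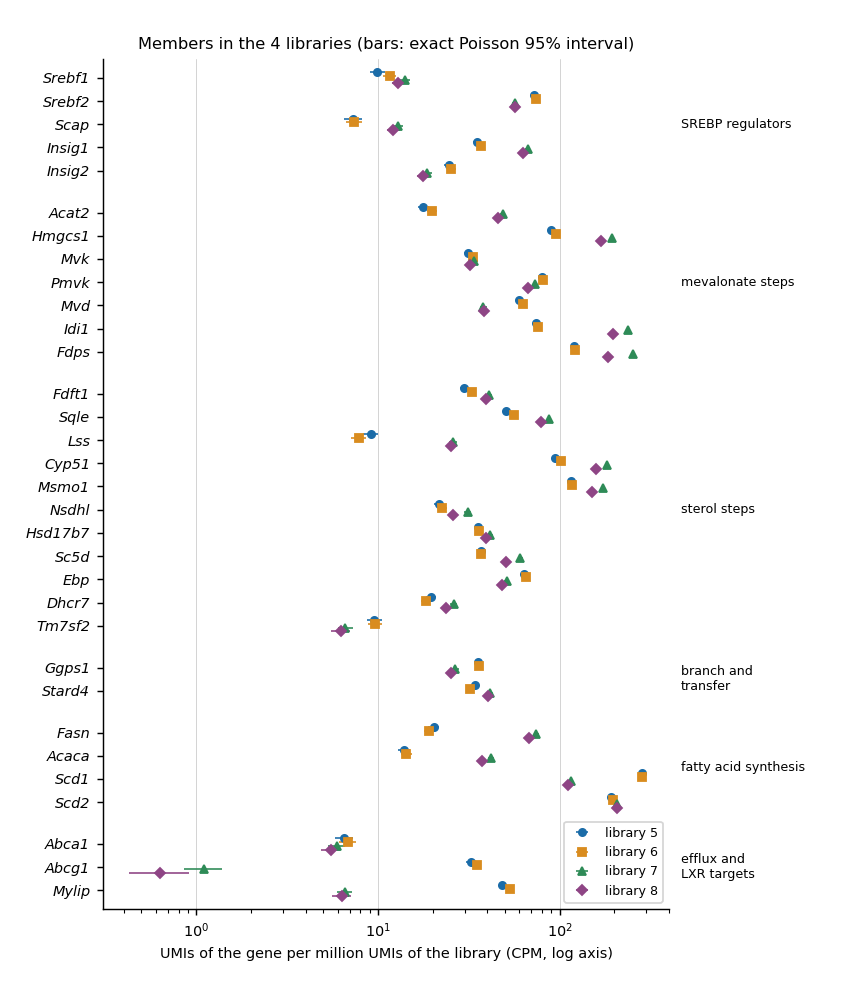
Counts per 1000000 UMIs (CPM, log axis) of each of the 32 members in libraries 5, 6, 7, and 8, grouped by role, with exact Poisson 95% intervals as bars. Abcg1 and Mylip lie far lower in libraries 7 and 8, Idi1, Lss, Fasn, and Acaca lie higher there, and Mvk and Scd2 differ by no more than 1.08-fold.

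None of the 5 regulators passed the 2-fold limit, which 31.7% of all genes passed. Scap, the escort of the SREBP precursors, stood at 7.29, 7.36, 12.9, and 12.2 CPM in libraries 5, 6, 7, and 8 (1.76-fold, 1.55 to 2.01). Insig1, which retains SCAP and is itself an SREBP target, stood at 35.3, 37.0, 66.7, and 62.7 CPM (1.89-fold, 1.78 to 2.00). Both genes were higher in libraries 7 and 8 with no overlap of the intervals with libraries 5 and 6. Most genes were apart beyond counting error, as the interval of the ratio of library 7 to library 5 excluded 1 for 88.9% of all 8691 genes. Insig2, the second retention protein, had the opposite order, at 24.6, 25.4, 18.7, and 17.7 CPM (1.44-fold, 1.31 to 1.57). Srebf2, which encodes the SREBP that mainly drives cholesterol synthesis, was lower in libraries 7 and 8 as well, at 72.2, 73.9, 56.6, and 56.5 CPM (1.31-fold, 1.24 to 1.37). Srebf1, whose products mainly drive fatty acid synthesis, stood at 9.92, 11.6, 14.1, and 12.9 CPM (1.42-fold, 1.26 to 1.59). Its ratio of library 8 to library 6 was 1.11 (0.991 to 1.25), an interval that included 1, and its ratio of library 6 to library 5 was 1.17 (1.03 to 1.33). In cells with under 5% mitochondrial UMIs, which left 143 and 207 cells of libraries 5 and 6, Srebf1 was 2.83-fold apart, Scap 2.06-fold, and Insig1 2.01-fold, and Scap was 2.28-fold apart with cells thinned to 4000 UMIs. Srebf1 then rested on 7 UMIs in library 5. Srebf2 was thus lower in libraries 7 and 8, while Srebf1 was higher there by order, but within counting error between libraries 8 and 6. The activity of SREBPs, which depends on cleavage of the protein, was not measured.

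Of the 7 mevalonate steps, 4 passed the 2-fold limit, all 4 higher in libraries 7 and 8 (57.1%, against 17.0% of all genes). Idi1, the isomerase that makes dimethylallyl diphosphate (13:8885501-8892451), stood at 74.5, 76.1, 238, and 197 CPM (3.19-fold, 3.08 to 3.32). Acat2, the cytosolic thiolase at the head of the pathway (17:12942890-12960747), stood at 17.8, 19.9, 48.6, and 45.8 CPM (2.73-fold, 2.52 to 2.95). Hmgcs1, the synthase that makes HMG-CoA (13:119690379-119708260), stood at 89.5, 95.4, 193, and 168 CPM (2.16-fold, 2.08 to 2.24). Fdps, the synthase of farnesyl diphosphate (3:89093588-89101959), stood at 120, 121, 254, and 185 CPM (2.12-fold, 2.05 to 2.19). For these 4 genes libraries 5 and 6 lay close together and low, and library 7 was the highest. Without library 7, and with TMM factors or with mitochondrial, ribosomal protein, and immunoglobulin genes left out of the total, Hmgcs1 and Fdps dropped below 2-fold. Fdps did so too with DESeq2 size factors (1.99-fold) and outside the mitosis-like and S phase-like clusters (1.91-fold). An annotated read-through gene, Gm43738, covers 7512 bases of Fdps on its strand and had at most 0.109 CPM. Reads that match both genes may have been left out of the count of Fdps.

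The steps between Hmgcs1 and Idi1 did not follow their neighbors. Mvk, the mevalonate kinase, stood at 31.5, 33.5, 34.0, and 32 CPM (1.08-fold, 1.01 to 1.15), and its 2 higher libraries changed with the scaling. Pmvk, the phosphomevalonate kinase, stood at 80.0, 81.5, 73.4, and 67.3 CPM (1.21-fold, 1.16 to 1.27), with library 8 the lowest. Mvd, the decarboxylase that makes isopentenyl diphosphate (8:122433601-122443422), stood at 59.5, 62.6, 38.1, and 38.6 CPM (1.65-fold, 1.56 to 1.74). Its order was the reverse of that of Idi1, which encodes the enzyme of the next step. The stretches of Mvd and Idi1 printed above hold 2 CCAAT motifs each, and a part of the motif in the order was not tested.

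Of the 11 sterol steps, only Lss passed the 2-fold limit (9.09%, against 31.7% of all genes). By order, 9 of 11 were higher in libraries 7 and 8 (81.8%, against 54.1% of all genes), Hsd17b7 not under every scaling. Lss, the cyclase that forms lanosterol (10:76531588-76557138), stood at 9.14, 7.82, 25.9, and 25.2 CPM (3.31-fold, 2.97 to 3.70). Its levels in libraries 7 and 8 were within counting error of each other. Cyp51, the lanosterol demethylase, stood at 94.5, 101, 182, and 159 CPM (1.93-fold, 1.86 to 2.00). Sqle, the squalene epoxidase and a control point of the pathway, stood at 50.7, 55.8, 87.0, and 79.1 CPM (1.72-fold, 1.64 to 1.80), and was 2.55-fold apart with under 5% mitochondrial UMIs. Both had their highest value in library 7. Sc5d, the C5 desaturase, stood at 36.7, 36.9, 60.9, and 51.0 CPM (1.66-fold, 1.56 to 1.76), and Msmo1, the methylsterol oxidase, at 116, 117, 174, and 151 CPM (1.5-fold, 1.45 to 1.55).

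The other sterol steps differed less. Nsdhl, a dehydrogenase of C4 demethylation, stood at 21.7, 22.6, 31.3, and 26.0 CPM. Dhcr7, which reduces 7-dehydrocholesterol to cholesterol, stood at 19.6, 18.5, 26.1, and 23.8 CPM. Fdft1, the squalene synthase, stood at 29.9, 32.8, 41.0, and 39.2 CPM. These 3 were between 1.37-fold and 1.44-fold apart, with libraries 7 and 8 the higher. Hsd17b7, the ketoreductase of C4 demethylation, stood at 35.6, 36.1, 41.6, and 39.5 CPM (1.17-fold, 1.10 to 1.24), and the libraries that were higher changed once mitochondrial, ribosomal protein, and immunoglobulin genes were left out of the total.

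Ebp and Tm7sf2 had the reverse order. Ebp, the sterol isomerase, stood at 63.7, 65.3, 51.2, and 48.3 CPM (1.35-fold, 1.28 to 1.43). Tm7sf2, a C14 sterol reductase, stood at 9.54, 9.64, 6.63, and 6.24 CPM (1.55-fold, 1.33 to 1.79). For both, libraries 7 and 8 were below libraries 5 and 6 without overlap of the intervals. The interval of the ratio of library 7 to library 5 excluded 1 for 88.9% of all genes. Tm7sf2 overlaps Vps51 on the same strand over 532 bases, and Vps51 reached 9.01 CPM, so that reads may be divided between them.

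Ggps1 and Stard4 stand beside the main line of the pathway. Ggps1, the synthase of geranylgeranyl diphosphate for protein prenylation, stood at 35.6, 35.9, 26.5, and 25.3 CPM (1.42-fold, 1.32 to 1.53). Farnesyl diphosphate is its substrate, and Fdps, which makes it, had the opposite order. Stard4, a cytosolic carrier of sterol, stood at 34.1, 32.2, 41.4, and 40.4 CPM (1.28-fold, 1.21 to 1.37), with libraries 7 and 8 the higher.

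The genes of fatty acid synthesis diverged from one another, and 3 of the 4 passed the 2-fold limit (75%, against 31.7% of all genes). Fasn, the fatty acid synthase (11:120805846-120824547), stood at 20.2, 19.1, 74.5, and 67.5 CPM (3.91-fold, 3.65 to 4.19). Acaca, the acetyl-CoA carboxylase that supplies its malonyl-CoA (11:84129672-84401651), stood at 13.9, 14.3, 41.9, and 37.4 CPM (3.01-fold, 2.76 to 3.29). Both were higher in libraries 7 and 8. Scd1, a stearoyl-CoA desaturase (19:44394455-44407879), went the other way at 285, 285, 116, and 111 CPM (2.57-fold, 2.49 to 2.65). Its paralogue Scd2, which lies on the same chromosome (19:44293674-44306864), stood at 192, 198, 208, and 207 CPM (1.08-fold, 1.05 to 1.11), and its order changed with the scaling. Because the desaturases have similar sequences, reads shared by Scd1 and Scd2 may not have been counted for either. The sum of the 4 genes was 511, 516, 440, and 423 CPM, since the lower Scd1 outweighed the higher Fasn and Acaca.

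Of the 3 LXR targets, Abcg1 and Mylip were lower in libraries 7 and 8. Abcg1, a transporter that exports cholesterol to lipoprotein particles (17:31057675-31117988), was counted with 1450 and 1818 UMIs in libraries 5 and 6 and with 70 and 29 UMIs in libraries 7 and 8. Its level was 32.3 CPM (30.7 to 34.0), 35.2 CPM (33.6 to 36.9), 1.10 CPM (0.858 to 1.39), and 0.635 CPM (0.425 to 0.912), a ratio of 55.4 (38.5 to 83.0), the largest among the 32 members. Without library 8 the ratio was 32, with library 7 as the lowest. Of the 29 UMIs in library 8, 9 came from 25 cells that lay in clusters A, D, and E, which otherwise held cells of libraries 5 and 6, and the other cells of library 8 gave 0.440 CPM. That division of cells was chosen after the values were seen. Mylip, an E3 ubiquitin ligase that limits lipoprotein uptake (13:45389742-45412022), stood at 48.4, 53.4, 6.58, and 6.33 CPM (8.44-fold, 7.47 to 9.55). Abca1, the transporter that loads cholesterol onto apolipoprotein acceptors, stood at 6.53, 6.82, 5.92, and 5.50 CPM (1.24-fold, 1.05 to 1.46), and the intervals of every pair of libraries overlapped. Thus 1 of the 2 transporters carried nearly all of the difference in efflux transcripts.

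Summed over the 18 mevalonate and sterol steps, synthesis transcripts stood at 960 CPM (951 to 969), 994 CPM (986 to 1003), 1607 CPM (1597 to 1617), and 1381 CPM (1371 to 1392) in libraries 5, 6, 7, and 8. The ratio of library 7 to library 5 was 1.67 (1.66 to 1.69). The 7 mevalonate steps gave 1.86 (1.83 to 1.89) and the 11 sterol steps 1.49 (1.47 to 1.52). Idi1 made up 25.2%, Fdps 20.8%, and Hmgcs1 16.0% of the difference between libraries 7 and 5, and without these 3 genes the ratio was 1.36. Per cell, the median of synthesis UMIs per 10000 UMIs was 8.68, 9.11, 14.6, and 12.5, and the share of cells without any synthesis UMI was 0.906%, 0.785%, 0.374%, and 0.600%, at medians of 8752, 8785, 10355, and 10077 UMIs per cell. With every cell thinned to 4000 UMIs the ratio of the sums was 1.63.

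The efflux sum of Abca1 and Abcg1 ran the other way, at 38.9 CPM (37.1 to 40.7), 42.0 CPM (40.3 to 43.8), 7.02 CPM (6.39 to 7.71), and 6.13 CPM (5.43 to 6.89), a ratio of 6.85 (6.05 to 7.79). Per 100 synthesis UMIs, a measure that does not depend on the library total, there were 4.05 efflux UMIs in library 5 (3.86 to 4.25), 4.23 in library 6 (4.05 to 4.41), 0.437 in library 7 (0.397 to 0.480), and 0.444 in library 8 (0.393 to 0.499). The highest library was 9.67-fold above the lowest. Libraries 5 and 6 had overlapping intervals, as had libraries 7 and 8.

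**Figure D2:**
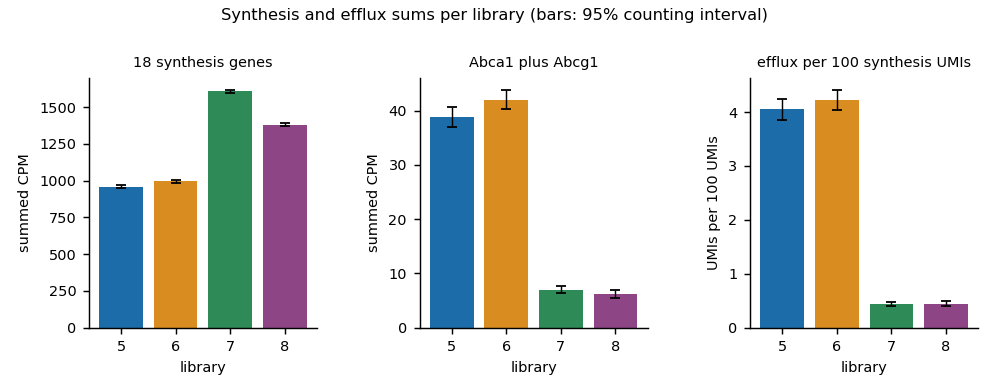
Summed CPM of the 18 synthesis genes, summed CPM of Abca1 and Abcg1, and efflux UMIs per 100 synthesis UMIs in libraries 5 to 8, with 95% counting intervals as bars. Synthesis runs from 960 to 1607 CPM, and efflux per 100 synthesis UMIs is near 4 in libraries 5 and 6 and near 0.44 in libraries 7 and 8.

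Neighboring libraries differed too. Between libraries 6 and 5, the interval of the ratio included 1 for 23 of the 32 members, lay above 1 for 8, and below 1 for Lss alone, so that 28.1% of members were apart, against 22.8% of all 8691 genes. Between libraries 7 and 8, it included 1 for 15 members and lay above 1 for the other 17, so that 53.1% of members were apart, against 35.9% of all 8691 genes. The median ratio of library 7 to library 8 was 1.06 over members and 1.04 over all genes. Fdps was the furthest apart of the synthesis genes (1.38, 1.34 to 1.42), followed by Idi1 (1.21, 1.17 to 1.24), Nsdhl (1.20, 1.12 to 1.29), and Sc5d (1.19, 1.13 to 1.26). The Abcg1 ratio was 1.73 (1.11 to 2.77). Libraries with similar levels thus still differed beyond counting error for many members. Between libraries 7 or 8 and libraries 5 or 6, the interval excluded 1 for 93.75% to 96.88% of members. The same held for 87.15% to 89.18% of all 8691 genes.

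The cells were clustered without the members and the pathway genes named below, which gave 7 clusters. Clusters A (7016 cells), D (885), and E (864) held cells of libraries 5 and 6, apart from 3 cells of library 7 and 25 of library 8. Clusters B (6835), C (2157), and F (522) held cells of libraries 7 and 8, apart from 3 cells of library 5 and 6 of library 6. By the markers listed for them, D and F were mitosis-like, C was S phase-like, and G (255 cells of all 4 libraries) was plasmablast-like. The summed S phase markers were at least as high in D and F (1064 and 1069 CPM) as in C (904 CPM), against 89.0 and 177 CPM in A and B. Cells of high UMI count were kept, and no doublet caller was run. Within libraries 5 and 6, the synthesis sum was 962 and 993 CPM in cluster A and higher, at 1124 and 1188 CPM, in cluster E, which was led by Dhrs3, Tnfrsf19, and Ccl3. Efflux was the reverse, at 44.9 and 47.2 CPM in cluster A and at 18.1 and 20.4 CPM in cluster E. Abcg1 alone was 36.9 and 39.6 CPM in A and 15.6 and 16.4 CPM in E, Mylip was 56.8 and 62.9 CPM in A and 21.2 and 20.6 CPM in E, and Idi1 was 68.8 and 70.1 CPM in A and 120 and 121 CPM in E. Higher synthesis with lower efflux transcripts was therefore also seen between clusters A and E within 1 library. Cluster D did not follow this. Both of its sums were below those of cluster A, at 867 and 917 CPM for synthesis and 27.1 and 33.1 CPM for efflux. In cluster B, synthesis stood at 1521 and 1304 CPM and efflux at 7.22 and 6.11 CPM in libraries 7 and 8. Cluster C had higher synthesis than B without lower efflux (7.34 and 6.73 CPM). Cluster F had higher synthesis than B with lower efflux (4.36 and 2.95 CPM). In cells outside the mitosis-like and S phase-like clusters, the highest library was 7.02-fold above the lowest for the efflux sum and 1.54-fold for the synthesis sum.

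**Figure D3:**
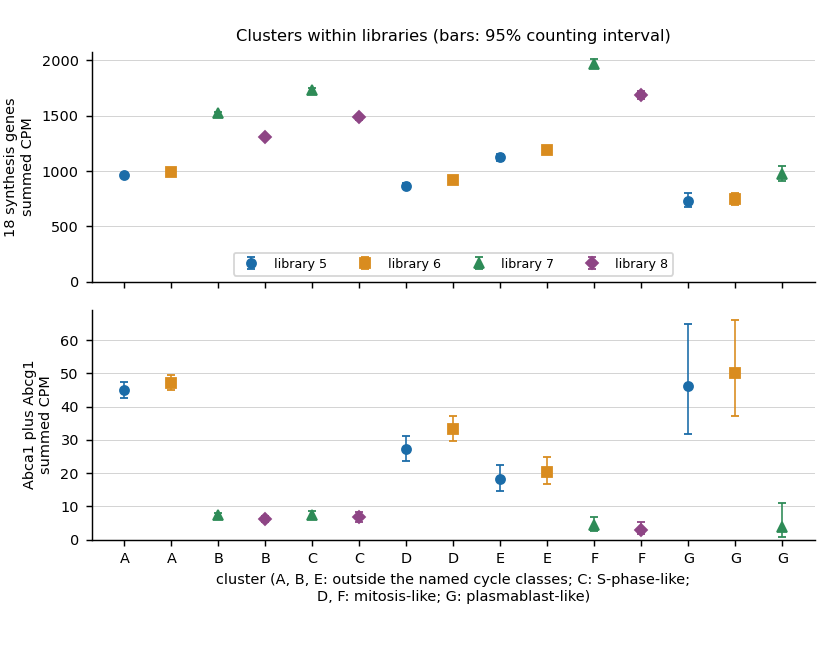
Summed CPM of the 18 synthesis genes and of Abca1 plus Abcg1 in each cluster within each library that had at least 50 of its cells, with 95% counting intervals as bars. Cluster E holds higher synthesis and lower efflux values than cluster A in libraries 5 and 6, and the mitosis-like cluster F holds the highest synthesis value within each of libraries 7 and 8, at 1966 and 1684 CPM.

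Mitosis-like cells were compared with the B cells outside the mitosis-like, S phase-like, and plasmablast-like clusters of the same library. The mitosis-like clusters also carried S phase markers, so these ratios are not specific to mitosis. Cluster D held the mitosis-like cells of libraries 5 and 6, and cluster F those of libraries 7 and 8 (406, 477, 279, and 245 cells, including 3 cells of library 6 in F and 5 cells of library 8 in D). The synthesis sum in mitosis-like cells over the other B cells was 0.881 (0.858 to 0.904), 0.899 (0.878 to 0.921), 1.29 (1.27 to 1.32), and 1.28 (1.25 to 1.32) in libraries 5 to 8, with the median gene at 1.06, 1.06, 0.992, and 0.997. Mitosis-like cells thus held a smaller share of synthesis transcripts in libraries 5 and 6 and a larger share in libraries 7 and 8. Their median depth was 16690 UMIs in cluster D and 16280 in cluster F, against 8194 in cluster A and 9430 in cluster B. The efflux ratio was below 1 in all 4 libraries, at 0.657 (0.566 to 0.759), 0.751 (0.663 to 0.849), 0.600 (0.366 to 0.935), and 0.536 (0.288 to 0.923), though only 21 and 14 efflux UMIs stood behind the values of libraries 7 and 8.

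Single members took part in this unequally. Acat2 was higher in mitosis-like cells in all 4 libraries, with ratios of 1.25, 1.36, 1.42, and 1.47, and so was Sc5d, with 1.17, 1.13, 1.47, and 1.39, and all 8 intervals lay above 1. Cyp51, Fdft1, Lss, Idi1, Sqle, Ebp, Srebf2, and Insig2 had intervals above 1 in 2 libraries and below 1 in none. Fdps, Insig1, and Scd1 had intervals above 1 in 2 libraries and below 1 in 2, and Hmgcs1 and Acaca above 1 in 2 and below 1 in 1. Mvk, Hsd17b7, Dhcr7, Tm7sf2, Ggps1, Abcg1, and Mylip had intervals below 1 in 2 libraries and above 1 in none. Mvd ranged from 0.591 to 1.44, with intervals below 1 in 2 libraries and above 1 in 1. Msmo1 ranged from 0.647 to 1.11 in the same way. Abca1 had ratios of 0.427, 0.682, 0.656, and 0.479, with intervals below 1 in 3 of the 4 libraries. Stard4, Srebf1, and Pmvk had intervals above 1 in 3 libraries. The share of all genes with such intervals was not counted, so these counts do not set the members apart from other genes. Of all genes at 5 CPM in either group, 5030 of 8461, 4980 of 8519, 4042 of 8320, and 4130 of 8324 were higher in mitosis-like cells in libraries 5 to 8.

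**Figure D4:**
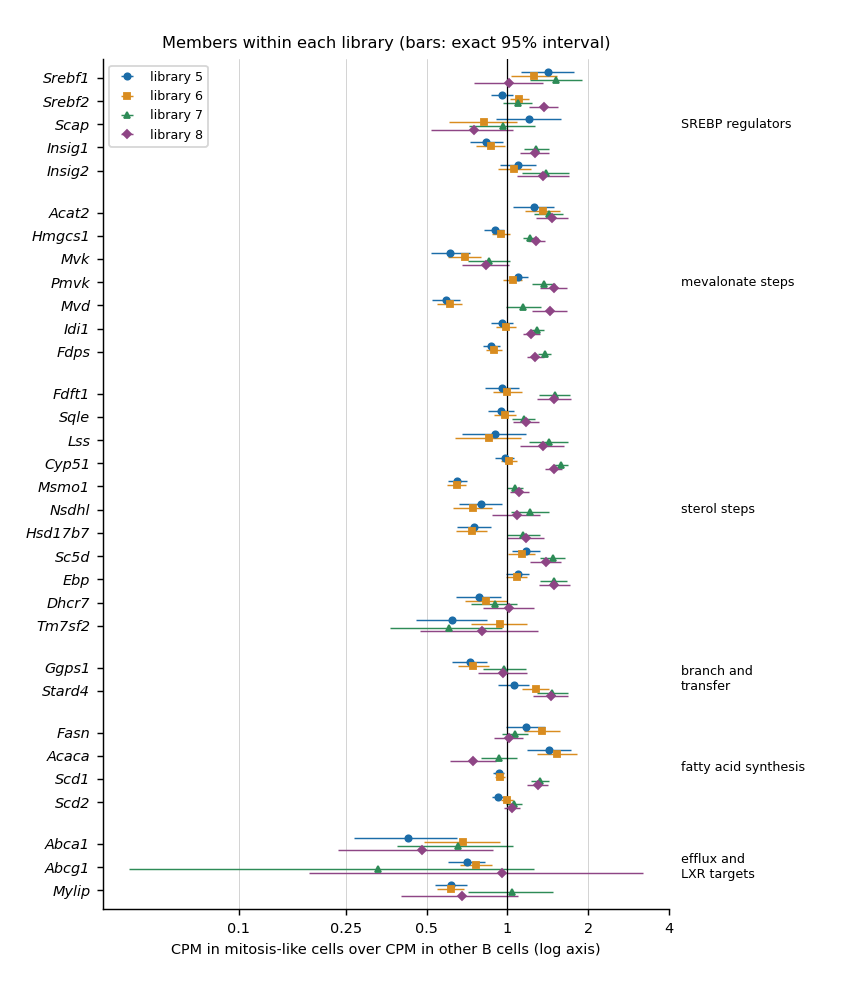
Ratio of CPM in mitosis-like cells to CPM in other B cells of the same library for each of the 32 members (log axis, exact 95% intervals as bars, vertical line at 1). Acat2 and Sc5d lie above 1 in every library, Mvd and Msmo1 lie below 1 in libraries 5 and 6, and the ratio of Abca1 is below 1 in every library, with an interval that includes 1 in library 7.

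S phase-like cells formed a separate cluster, C, only in libraries 7 and 8 (1305 and 850 cells). In libraries 5 and 6, S phase markers were highest in the mitosis-like cluster D. Their synthesis sum was 1.14-fold that of the other B cells in both libraries (1.12 to 1.15 and 1.12 to 1.16), at 1728 and 1483 CPM, with the median gene at 0.992 and 0.994. The ratio was 1.17 and 1.18 for the mevalonate steps and 1.09 and 1.09 for the sterol steps, and the intervals of the efflux ratio included 1 (1.01 and 1.07). Acat2 had the largest ratio among members with intervals above 1 in both libraries, at 1.37 in each, and Sc5d, Idi1, and Stard4 followed.

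Plasmablast-like cells, which secrete antibody, numbered 66, 98, and 57 in libraries 5, 6, and 7, and the 34 of library 8 were too few to describe. Their synthesis sum was 0.745 (0.682 to 0.812), 0.737 (0.685 to 0.793), and 0.642 (0.597 to 0.689) of that of the other B cells, with the median gene at 0.863, 0.887, and 0.78. Hmgcs1, Idi1, Msmo1, and Scd1 had intervals below 1 in all 3 libraries, whereas Ebp had intervals above 1 in 2, and Insig1 and Insig2 in 1 each. Most genes were lower in these cells. Of all genes at 5 CPM in either group, 3067 of 8424, 3187 of 8381, and 2710 of 8495 were higher. The share of all genes with intervals below 1 was not counted, so these intervals do not set the members apart. Abcg1 stood at 39.1 and 41.0 CPM in the plasmablast-like cells of libraries 5 and 6, against 33.98 and 36.65 CPM in the other B cells. Both intervals of its ratio included 1. In library 7, Abcg1 had 0 UMIs in the plasmablast-like cells and 1.26 CPM in the other B cells. The interval of that ratio ran from 0 to 3.82, so the 0 does not show a lower level.

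Among 56 further genes of the pathway in 6 lists, 44 reached 5 CPM and 13 of these differed at least 2-fold (29.5%, against 31.7% of all genes), 11 of them with libraries 7 and 8 the higher (25%, against 17.0%). With mitochondrial, ribosomal protein, and immunoglobulin genes left out of the total 10 passed (7 with libraries 7 and 8 the higher), and with TMM factors or DESeq2 size factors 11 passed (9 with libraries 7 and 8 the higher), an alternative chosen after seeing the data. In SREBP processing and turnover, 1 of 10 passed (10%, against 31.7% of all genes). This was Tmem97, a sterol-regulated membrane protein, at 16.9, 17.4, 58.9, and 56.1 CPM (3.49-fold, 3.23 to 3.78), while Mbtps1, which encodes the protease that makes the first cut in SREBPs, stood at 20, 21.2, 19.7, and 18.8 CPM. In prenylation and dolichol synthesis, 5 of 12 passed, all higher in libraries 7 and 8 (41.7%, against 17.0% of all genes). They were Pdss1, of ubiquinone synthesis (3.46-fold), Fntb, a farnesyltransferase subunit (2.58-fold), Rabggtb and Rabggta, subunits of the enzyme that prenylates Rab proteins (2.41-fold and 2.39-fold), and Nus1, of dolichol synthesis (2.28-fold). By order, 11 of the 12 had libraries 7 and 8 the higher (91.7%, against 54.1% of all genes), Fnta and Pdss2 not under every scaling. Pdss1 (3.61, 4.18, 12.5, and 11.1 CPM), Fntb (3.75, 3.70, 9.55, and 8.5 CPM), and Icmt (4.57, 4.57, 7.86, and 7.36 CPM) reached 5 CPM only in libraries 7 and 8. For these genes the limit of 5 CPM partly fixed the order. The shares of all genes were taken with the same limit. Because the lists were chosen with earlier results of these data known, their shares are a description only. Pggt1b, a prenyltransferase subunit, had the reverse order at 23.7, 22.1, 16.5, and 14.5 CPM (1.63-fold).

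In sterol traffic and storage, 5 of 8 genes at 5 CPM passed (62.5%, against 31.7% of all genes). Of these, 3 were higher in libraries 7 and 8 (37.5%, against 17.0%) and 2 in libraries 5 and 6 (25%, against 14.6%). Gramd1a, which carries sterol from the plasma membrane to the endoplasmic reticulum, stood at 13.6, 15.0, 48.3, and 43.8 CPM (3.55-fold, 3.26 to 3.88). Nceh1, a cholesteryl ester hydrolase, stood at 6.62, 7.82, 14.7, and 14.4 CPM (2.21-fold, and below 2-fold with mitochondrial, ribosomal protein, and immunoglobulin genes left out of the total). Npc2, which hands sterol out of the lysosome, was lower in libraries 7 and 8, at 313, 321, 150, and 148 CPM (2.18-fold, 2.12 to 2.24). In fatty acid supply 1 of 9 passed (11.1%, against 31.7% of all genes). Of the oxysterol list only Gpr183, a receptor for oxysterols that guides B cells, reached 5 CPM, at 32.1, 33.1, 68.9, and 64.6 CPM (2.15-fold, 2.03 to 2.28), and it dropped below 2-fold under the 3 other scalings.

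Of the LXR list none of the 4 genes at 5 CPM passed (0%, against 31.7% of all genes), a list too short to tell these shares apart. Nr1h2, which encodes LXRβ, stood at 21.5, 20.7, 25.3, and 24.2 CPM, and Nr1h3, which encodes LXRα, was counted with 4, 4, 3, and 1 UMIs, under 0.1 CPM in every library. Rxrb, an LXR partner, stood at 24.6, 22.5, 22.3, and 22.8 CPM. Lpcat3, a phospholipid-remodeling enzyme and LXR target, stood at 44.7, 47.9, 65.7, and 58.2 CPM, the reverse of the order of Abcg1 and Mylip. Plin2 and Arl4c, of the same list, had the order of Abcg1 and Mylip. Plin2 stood at 9.63, 9.49, 6.79, and 5.52 CPM (1.75-fold, 1.49 to 2.05). Arl4c, under 5 CPM in every library, stood at 3.01, 3.82, 1.37, and 1.58 CPM.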

How the data were processed

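Spleen B cells were profiled with the Chromium Single Cell 3′ v3 chemistry. Per the labels and the study's methods, the authors aligned reads to mouse mm10 with Cell Ranger (version 3.1.0) and counted UMIs per gene and cell. They combined and normalized libraries with Cell Ranger aggr. The deposited values are these counts, neither imputed nor normalized further. The mode of aggr is not given in the sources used here.

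The matrix has 35989 columns and the list 19920 barcodes, which were placed on the last columns by a rule set in advance. As a check, expression shifted where library 7 then starts (after column 25835, percentile 100 of all columns) and library 5 (16069, 99.2). It did so less for library 8 (31727, 90.7) and not for library 6 (20673, 51). On the first columns no start exceeded percentile 87. The other 16069 columns were not used. Cells with at least 1000 genes and under 10% mitochondrial UMIs were kept (559 and 1110 failed).

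UMIs were summed per library and divided by all its UMIs (Python 3.11.15, SciPy 1.17.1). A member was called by size where its highest library was at least 2-fold above its lowest and reached 5 CPM. Clusters came from Seurat (version 5.3.0, R version 4.3.3) with 1989 variable genes, 20 principal components, and a resolution of 0.3, and were named from marker lists. A list name needed at least 3 of its markers 2-fold above the other cells. Scripts were tested on simulated data. Gene positions are those of the GENCODE annotation on GRCm38, not the release the authors counted on. All members are named, up to 10 pathway genes by size of ratio, and the 5 genes outside the lists that were most like the synthesis sum, of which 1 is not reported here. The members and lists were chosen with earlier results of these data known.

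The alternatives were other totals, TMM factors (edgeR, version 4.0.16), size factors (DESeq2, version 1.42.0), cell means, other filters on cells, thinning to 4000 UMIs, other clusterings, and leaving out each library. A test of Bregs-TLR against Bregs-CpG was foreseen only for barcodes that name samples and was not run.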

Additional observations from a re-analysis of the deposited data

How the results depend on the processing

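The direction of the synthesis sum, the efflux sum, their quotient, and the mitosis-like ratio was the same under every alternative run. The number of members at least 2-fold apart (10) was between 8 and 14 with the limit kept, the highest with under 5% mitochondrial UMIs (where 39.9% of all genes were apart, against 31.7%) and the lowest with TMM factors, with the reduced total, and without library 7. It was 18 with a 1.5-fold limit (56.7% of all genes). The ratio of the synthesis sum (1.67) was 1.47 without mitochondrial, ribosomal protein, and immunoglobulin genes in the total, 1.54 with TMM factors, 1.55 with DESeq2 size factors, 1.65 as a mean over cells, 1.77 with under 5% mitochondrial UMIs, 1.54 outside cycling clusters, 1.63 with thinned cells, and 1.36 without Idi1, Fdps, and Hmgcs1, an alternative chosen after seeing the data. Leaving out each library gave 1.44 to 1.67, the lowest without library 7. With under 5% mitochondrial UMIs the efflux ratio (6.85) was 5.70 and the quotient (9.67) was 8.35, and without single libraries the efflux ratio was 5.98 to 6.85. The mitosis-like ratio of the synthesis sum was 1.24 and 1.23 in libraries 7 and 8 at a resolution of 0.1, 0.825 and 0.843 in libraries 5 and 6 with the reduced total, 0.95 in library 6 as a mean over cells, 0.926 there without the 5% of cells with the most UMIs, 0.956 there and 1.35 in library 7 with thinned cells, and 1.33 in library 8 with under 5% mitochondrial UMIs, where libraries 5 and 6 had too few mitosis-like cells for a value. The cause of these shifts was not tested. No paired analysis was possible because the barcodes name no sample. The ratio of Abcg1 rests on 70 and 29 UMIs in libraries 7 and 8.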

Other observations

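The values of several members fell into separate clusters of libraries, with 5 and 6 on one side and 7 and 8 on the other. Abcg1 stood at 32.3 and 35.2 against 1.10 and 0.635 CPM, Mylip at 48.4 and 53.4 against 6.58 and 6.33 CPM, Idi1 at 74.5 and 76.1 against 238 and 197 CPM, and Fasn at 20.2 and 19.1 against 74.5 and 67.5 CPM. Il10, which encodes an anti-inflammatory cytokine, stood at 13.7, 11.1, 255, and 253 CPM, and Ly6d, a B lineage surface protein, at 5270, 5202, 376, and 403 CPM in libraries 5, 6, 7, and 8. The labels do not tie these sides to a culture.

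Over the 15 clusters within libraries that had at least 50 cells, several genes outside all lists followed the synthesis sum on the log2 CPM scale. Pcyt2, of phosphatidylethanolamine synthesis, had a Pearson correlation of 0.958, Psmd8, a proteasome subunit, 0.943, Erg28, a scaffold protein of sterol synthesis, 0.942, and Slc4a7, a bicarbonate transporter, 0.94. Among the members, Hmgcs1 reached 0.984, Sqle 0.981, and Idi1 0.972, while Mvd was at -0.0587, Srebf2 at -0.457, and Abcg1 at -0.792. The points share libraries and depth, members of the sum are part of it, and the correlations are a description without a test. Erg28 stood at 104, 105, 261, and 258 CPM, and Pcyt2 at 39.1, 41.6, 77.2, and 67.3 CPM in libraries 5 to 8.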
